A study of Mus musculus with 6 samples.

Results

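The cGAS-STING genes and the Aicardi-Goutières nuclease genes are described here in sciatic nerves of P4 mice. The 7 genes were found by their symbols among the 59485 genes of the deposited table: *Mb21d1* (cGAS), *Tmem173* (STING), *Trex1*, *Samhd1*, *Rnaseh2a*, *Rnaseh2b* and *Rnaseh2c*. Each had 1 row, and all 7 passed the filter on low values. The groups are 3 control-labelled libraries, whose label gives the genotype wild-type, and 3 mutant-labelled libraries of the genotype Ht-PA-Cre; Adar1fl/fl;R26R. Each library came from the nerves of 1 animal at postnatal day 4. In the mutants, a Cre transgene under a human tissue plasminogen activator promoter removes floxed *Adar* (the gene of the RNA-editing enzyme ADAR1) from neural crest cells, and R26R carries the YFP reporter of these cells. The deletion is limited to the neural crest lineage, which gives Schwann cells (SCs), whereas a whole nerve also holds endothelial cells, fibroblasts and blood cells. In the study's crosses, wild-type animals are Adar1fl/fl;R26R or Adar1fl/+;R26R without the Cre transgene. Which of these a control-labelled library had is not given in the sources used here.

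cGAS is the cytosolic sensor that binds double-stranded DNA and makes the second messenger cGAMP. STING, a membrane protein of the endoplasmic reticulum, binds cGAMP and recruits the kinase TBK1, which activates IRF3 and thereby interferon (IFN) transcription. TREX1 degrades DNA in the cytosol, SAMHD1 hydrolyses deoxynucleoside triphosphates, and RNase H2, an enzyme of the subunits A, B and C, removes ribonucleotides from DNA. Loss of *TREX1*, *SAMHD1* or any RNase H2 subunit causes Aicardi-Goutières syndrome (AGS) in humans, as do mutations of *ADAR* and of *IFIH1*, the gene of the RNA sensor MDA5. AGS is an inflammatory disease, mainly of the brain, with constant type I IFN signaling.

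A few stretches of promoter show which letters lie beside the starts of members that rose, fell or did not pass the test. The set of RefSeq promoters used (GRCm38.p6, the assembly of mm10) held 5 of the 7 members, *Mb21d1*, *Trex1*, *Samhd1*, *Rnaseh2a* and *Rnaseh2c*. It had no entry under the symbols *Tmem173* and *Rnaseh2b*, so these were not searched. A promoter window covered 250 bases before and 50 bases after a start, and *Trex1* had windows of 2 starts. The windows were searched on both strands for the interferon-stimulated response element (GAAA and GAAA with 2 free bases between them), the STAT site TTCNNNGAA, and the E2F sites TTTCGCGC and TTTGGCGC. The response element was in 3.44% of all 32851 RefSeq windows, the STAT site in 8.30% and an E2F site in 0.813%. No member window held the response element or an E2F site. The STAT site was in the windows of *Samhd1* and *Rnaseh2a*, in capitals below, and the other 4 windows held none of the searched motifs. The stretches shown are the 250 bases before the start of *Mb21d1* (chr9:78443238-78443487, minus strand) and of *Rnaseh2c* (chr19:5601623-5601872, plus strand), the exon-free part of the *Samhd1* window (chr2:157135266-157135346, minus strand) and 30 bases around the match of *Rnaseh2a* (chr8:84966041-84966070, minus strand).
Mb21d1: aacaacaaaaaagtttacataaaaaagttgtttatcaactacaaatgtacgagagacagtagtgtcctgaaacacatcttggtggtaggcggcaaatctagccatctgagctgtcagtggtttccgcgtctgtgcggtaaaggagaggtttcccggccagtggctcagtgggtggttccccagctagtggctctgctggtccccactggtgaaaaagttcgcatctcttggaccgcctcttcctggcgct
Samhd1: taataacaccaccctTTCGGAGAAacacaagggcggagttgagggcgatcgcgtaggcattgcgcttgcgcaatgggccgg
Rnaseh2a: cactgcagttTTCGCGGAAaacgcgcgctg
Rnaseh2c: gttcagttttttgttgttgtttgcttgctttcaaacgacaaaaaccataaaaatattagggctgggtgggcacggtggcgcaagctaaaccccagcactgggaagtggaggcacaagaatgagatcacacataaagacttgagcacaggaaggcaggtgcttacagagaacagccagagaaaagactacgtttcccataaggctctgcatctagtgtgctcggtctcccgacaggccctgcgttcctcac
A match is a run of letters and not a shown binding site, and a window without a match says nothing of the factor.

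A library had between 50938349 and 78250094 reads on genes, and the deposited values are these reads divided by a DESeq2 size factor for each library, called normalised read counts here. Genes were compared with limma on log2(value + 1), so that log2 fold changes (mutant minus control) understate those of low genes. The threshold was a limma p of 0.05 before adjustment together with a 2-fold change, with Benjamini-Hochberg adjustment across the 25802 genes that were tested. The targeted gene *Adar* went from 1601 ± 467 to 10284 ± 1306 (SD, n = 3), and this rise of 2.72 on the log2 scale goes against the labels. With 1 value per gene, the deleted segment could not be told from the rest of *Adar*, so every direction below is drawn from the labels. All 12 SC markers passed the filter on low values (8 fell, beside 10.4% of all tested genes, and the summed level was 0.0775 of that of the controls). Of 9 skeletal muscle markers 8 rose, beside 13.9% of all tested genes, with summed levels of 7529 to 37835 in control-labelled and 50259 to 356924 in mutant-labelled libraries. Among the SC markers that did not fall past the threshold, *Ngfr* (log2 fold change -0.002) and *Cdh19* (0.13) had overlapping groups. By electron microscopy, the authors counted similar numbers of SCs in control and mutant nerves at P4. The part of these differences in the results on the members was not tested. From the RNA values alone, fewer cells of a type cannot be told apart from less RNA per cell.

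In the mutant-labelled libraries, *Mb21d1*, *Tmem173*, *Trex1* (in a row with *Atrip*) and *Samhd1* rose, each between 3.02-fold and 4.48-fold. *Rnaseh2c* fell to 0.378 of its control level, while *Rnaseh2a* and *Rnaseh2b* did not pass the test. Thus, 5 of the 7 members passed the threshold, 4 higher and 1 lower, against 24.2% of all tested genes (13.9% higher and 10.4% lower). The same 5 also passed with an adjusted p at or under 0.05, as 19.9% of all tested genes did. They also had values that did not overlap between the genotypes, which 49.2% of all tested genes also showed (25.9% higher and 23.3% lower). The median log2 fold change of the 7 members was 1.60, and that of all tested genes was 0.03 (quartiles -0.56 and 0.71).

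**Figure D1:**
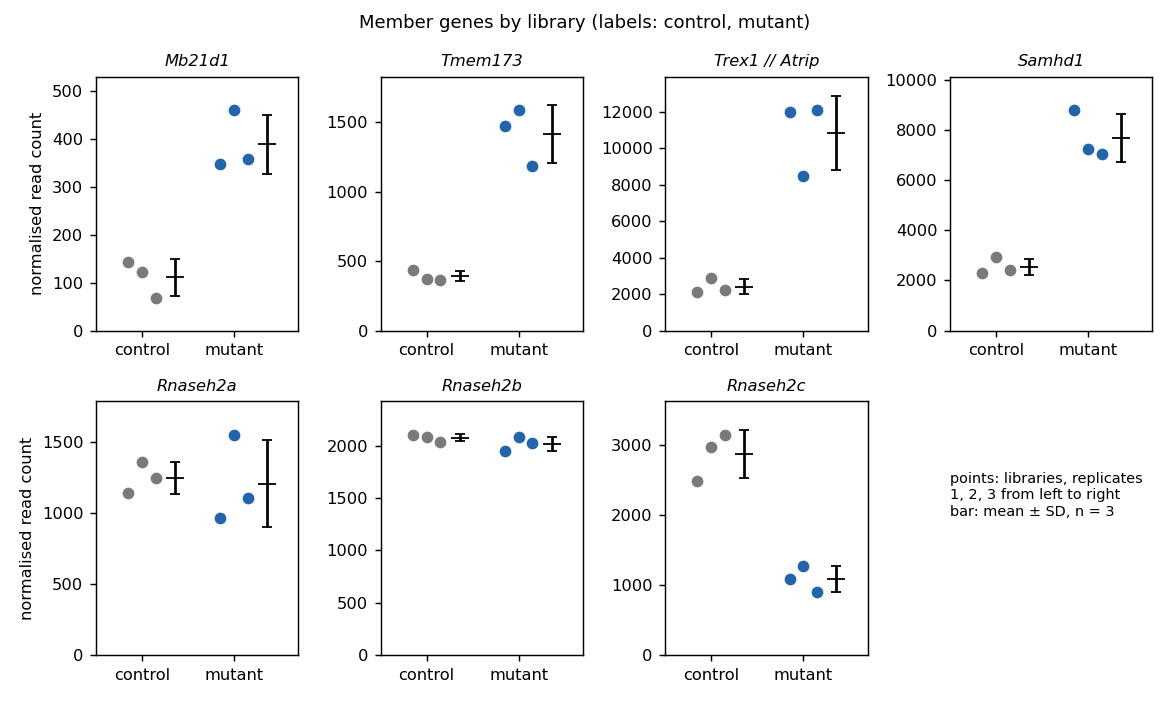
Normalised read count (y axis, linear from 0, a scale for each gene) of the 7 members in each library of the control-labelled (gray) and mutant-labelled (blue) groups, with the mean and SD as bars. The groups lie apart in *Mb21d1*, *Tmem173*, *Trex1* (in a row with *Atrip*), *Samhd1* and *Rnaseh2c*, and overlap in *Rnaseh2a* and *Rnaseh2b*.

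*Mb21d1* (GSMG0043583, chromosome 9, 78430518 to 78443238, minus strand of mm10), the gene of the DNA sensor cGAS, has up to 5 exons in GENCODE. Its normalised read counts were 143, 123 and 67.2 in control replicates 1, 2 and 3 and 348, 460.2 and 358 in mutant replicates 1, 2 and 3. Control replicate 3 was the lowest, with 53 counted reads, and all mutant-labelled values lay above all control-labelled ones. The mean went from 111 ± 39.4 to 389 ± 62.0 (SD, n = 3). The log2 fold change was 1.86 ± 0.31 SE (95% interval 1.14 to 2.58, limma adjusted p = 0.00245). *Mb21d1* had the fewest reads of the 7 members and the widest interval. An unnamed gene on the same strand (GSMG0043584, chromosome 9, 78425603 to 78432444) covers 1927 bases at its end. This gene had values of 253, 301 and 201 in control-labelled and 1302, 1204 and 802 in mutant-labelled libraries. Another unnamed gene on the same strand (78439259 to 78440922) lies within *Mb21d1*. Its values were 24.4, 14.2 and 0 in control-labelled and 57.5, 65.6 and 36.6 in mutant-labelled libraries. On the opposite strand, an unnamed gene overlaps by 288 bases, with values of at most 21.8. How the reads of these genes were divided from those of *Mb21d1* is not given in the sources used here.

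*Tmem173* (GSMG0018846, chromosome 18, 35733678 to 35740554, minus strand) encodes STING, the receptor of cGAMP. Its values were 434, 374 and 367 in control-labelled and 1474, 1586 and 1184 in mutant-labelled libraries. The lowest mutant-labelled value was 1184 and the highest control-labelled value was 434, so the groups were apart. The mean went from 392 ± 36.7 to 1415 ± 208 (log2 fold change 1.84 ± 0.16 SE, 95% interval 1.48 to 2.20, limma adjusted p = 7.45e-05). The fold change was 3.59 for this receptor and 3.62 for the sensor *Mb21d1*.

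*Trex1*, the gene of the main DNA exonuclease of the cytosol, shares a row with *Atrip*, the gene of a partner of the DNA damage kinase ATR (GSMG0041312, chromosome 9, 109054331 to 109074124, minus strand). The row had values of 2121, 2907 and 2204 in control-labelled and 11961, 8484 and 12086 in mutant-labelled libraries. Mutant replicate 2 was the lowest of its group and still above every control. The mean went from 2410.4 ± 432 to 10844 ± 2045 (log2 fold change 2.17 ± 0.17 SE, 95% interval 1.77 to 2.56, limma adjusted p = 5.13e-05), the largest of the 7 members. In GENCODE, *Trex1* (109057933 to 109059734, 2 exons) lies at the end of *Atrip* (109057933 to 109074124, 13 exons), and its exons make 1147 (30.8%) of the 3719 exon bases of both genes. The authors counted reads on regions outside alternative splicing, whose lengths are not given in the sources used here, so this is not the share of the counted sequence. The row therefore does not tell reads of *Trex1* from those of *Atrip*. *Shisa5* overlaps the row by 3462 bases on the opposite strand, with values from 4175 to 5648 in control-labelled and from 27753 to 32099 in mutant-labelled libraries. The cDNA was oriented, but whether the counting used the strand is not given in the sources used here.

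*Samhd1* (GSMG0023788, chromosome 2, 157097529 to 157135222, minus strand, 16 exons in GENCODE) encodes the enzyme that lowers the pool of deoxynucleotides, and its promoter window holds the STAT site match shown above. Its values were 2298, 2921 and 2431 in control-labelled and 8803, 7249 and 7054 in mutant-labelled libraries. The highest control-labelled value, 2921, lay far under the lowest mutant-labelled value of 7054. The mean went from 2549.6 ± 328 to 7702 ± 958 (log2 fold change 1.60 ± 0.13 SE, 95% interval 1.30 to 1.89, limma adjusted p = 5.57e-05). The 95% intervals of the 4 genes that rose overlapped one another, and differences among them were not tested.

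**Figure D2:**
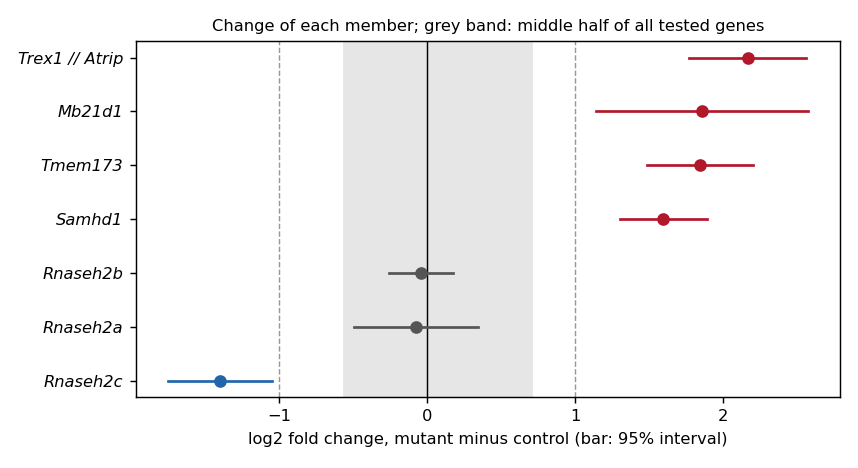
Log2 fold change of each member (x axis, mutant minus control, n = 3 each), with its 95% interval from limma. The gray band runs from -0.56 to 0.71, the quartiles of all 25802 tested genes, and dashed lines mark a change of 2-fold. The genes *Trex1* (in a row with *Atrip*), *Mb21d1*, *Tmem173* and *Samhd1* lie above the band, *Rnaseh2b* and *Rnaseh2a* within it, and *Rnaseh2c* below it.

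Of the 3 subunit genes of RNase H2, *Rnaseh2c* passed the threshold and the other two did not. *Rnaseh2a* (GSMG0038694, chromosome 8, 84956610 to 84966085, minus strand) encodes the catalytic subunit. Its values were 1137, 1361 and 1243 in control-labelled and 960.2, 1551 and 1106 in mutant-labelled libraries. Both the lowest and the highest value were mutant-labelled, and the groups overlapped. The mean was 1247 ± 112 and 1205 ± 308 (log2 fold change -0.07 ± 0.18 SE, 95% interval -0.49 to 0.34, limma adjusted p = 0.78). The interval lies within a change of 2-fold in either direction.

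*Rnaseh2b* (GSMG0011672, chromosome 14, 62332065 to 62372992, plus strand) encodes a subunit without catalytic activity, which links the enzyme to the replication clamp PCNA. Its values were 2105, 2085 and 2038 in control-labelled and 1944, 2080.2 and 2022 in mutant-labelled libraries. The 6 values lay close together and the groups overlapped. The log2 fold change came to -0.04 (SE 0.09, 95% interval -0.26 to 0.17, limma adjusted p = 0.751), the narrowest interval of the 7 members.

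*Rnaseh2c* (GSMG0019311, chromosome 19, 5601873 to 5602959, plus strand) encodes the other subunit without catalytic activity. In GENCODE the gene starts at the same base and runs on to 5607019, so the row covers only part of it. The rows of *Rnaseh2a* and *Rnaseh2b* are also shorter than their GENCODE genes (84956610 to 84969767 and 62292589 to 62372992). Its values were 2493, 2967 and 3150.3 in control-labelled and 1089.6, 1277 and 906 in mutant-labelled libraries. Every mutant-labelled value lay under every control-labelled one. The bases before its start, printed above, held none of the searched motifs. The mean went from 2870.1 ± 339 to 1091 ± 185.7 (log2 fold change -1.40 ± 0.15 SE, 95% interval -1.75 to -1.05, limma adjusted p = 0.000269).

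A ratio of 2 subunits within a library does not depend on the size factor of that library, so it was compared between genotypes in an exact permutation test of 3 libraries against 3 (two-sided, smallest possible p = 0.1). The log2 ratio of *Rnaseh2a* to *Rnaseh2c* was -1.13, -1.12 and -1.34 in control-labelled and -0.18, 0.28 and 0.29 in mutant-labelled libraries. The log2 ratio of *Rnaseh2b* to *Rnaseh2c* was -0.24, -0.51 and -0.63 in control-labelled and 0.83, 0.70 and 1.16 in mutant-labelled libraries. In both, the groups did not overlap. The differences were 1.33 (2.51-fold) and 1.36 (2.56-fold), each with an exact permutation p = 0.1, the smallest that 3 against 3 can give. The log2 ratio of *Rnaseh2a* to *Rnaseh2b* was -0.89, -0.62 and -0.71 in control-labelled and -1.02, -0.42 and -0.87 in mutant-labelled libraries, and the groups overlapped (difference -0.03, exact permutation p = 1). The values compare transcripts only, and no value here shows the amount of the assembled enzyme.

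**Figure D3:**
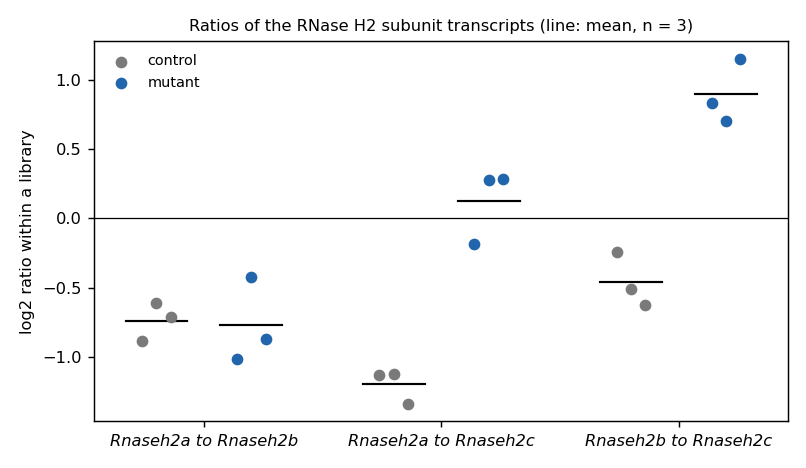
Log2 ratio of 2 RNase H2 subunit transcripts within each library (y axis) for the 3 pairs, in control-labelled (gray) and mutant-labelled (blue) libraries, with group means as lines. Both ratios over *Rnaseh2c* are higher in all 3 mutant-labelled libraries, and the ratio of *Rnaseh2a* to *Rnaseh2b* overlaps between groups.

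For each member, the genes with the most similar profile over the 6 libraries were sought by the root mean square distance between centred log2 values, among 16394 genes (16395 for the row of *Trex1*) that passed the filter and have a single symbol. *Zfp827* (distance 0.11) and *Prune2* (0.14) were nearest to *Mb21d1*, and *Pfkp* (0.09) and *Crlf2* (0.09) to *Tmem173*. *Otud1* (0.09) and *Nt5c3* (0.10) were nearest to *Trex1*, and *Pck2* and *Pxk* (0.07 each) to *Samhd1*. *Mctp1* (0.08) and *Glyctk* (0.09) were nearest to *Rnaseh2a*, *Nptn* and *Cbx1* (0.02 each) to *Rnaseh2b*, and *Atp6v1g2* (0.06) and *Fahd2a* (0.08) to *Rnaseh2c*.

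Of the kinase and transcription factor genes that act after STING, *Tbk1*, *Ikbke* and *Irf3* did not pass the threshold, whereas *Irf7*, given below, did. *Tbk1* had values of 2125, 2074 and 1513 in control-labelled and 3226, 3130 and 3416 in mutant-labelled libraries. These values did not overlap, but the log2 fold change of 0.79 (standard error 0.14, limma adjusted p = 0.0034) was under 2-fold. The related kinase gene *Ikbke* had a log2 fold change of 0.98 (limma adjusted p = 0.0224), just under 2-fold, and passed the threshold in 3 of 18 other fits (same total, without control replicate 2 and without mutant replicate 3). *Irf3*, the gene of the transcription factor that TBK1 phosphorylates, had values of 3016, 3270 and 2764 in control-labelled and 3409, 3192 and 3120 in mutant-labelled libraries, which overlapped, and a log2 fold change of 0.11 (limma adjusted p = 0.454). The differences between these genes and the members were not tested.

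Of the 47 other genes of the cGAS-STING pathway in the table, 43 were tested and 9 (20.9%) passed the threshold, 4 higher and 5 lower, against 24.2% of all tested genes. Their median log2 fold change was -0.01, beside 0.03 over all genes. The genes that rose were *Irf7* (7.12), the gene of an IFN transcription factor, *Usp18* (6.18), which removes ISG15 from proteins and restrains the IFN receptor, and the ubiquitin ligase genes *Trim30a* (6.16) and *Trim56* (2.45). These 4 are known as IFN-induced genes. The genes that fell were *Insig1* (-3.12) and *Npc1* (-1.79), which serve the control and transport of cholesterol, the anion channel subunit gene *Lrrc8b* (-1.42), the ubiquitin ligase gene *Rnf5* (-1.15), and *Enpp1* (-1.11). *Enpp1* encodes the enzyme that degrades cGAMP outside cells, and its values were 1163, 1146 and 931 in control-labelled and 452, 549 and 498 in mutant-labelled libraries. When libraries were rescaled to the same total, *Enpp1* and *Rnf5* no longer reached 2-fold (-0.94 and -0.99), and the list had 6 genes higher and 3 lower. Among the genes that handle cGAMP, the channel subunits *Lrrc8a* (0.68, in a row with *Phyhd1*) and *Lrrc8c* (0.70) and the exporter *Abcc1* (0.50) did not pass the threshold. *Banf1*, whose product shields chromatin from cGAS, had a log2 fold change of 0.20 with overlapping groups.

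Among other sensors of cytosolic DNA, 9 of 22 tested genes (40.9%) passed the threshold, all 9 higher, against 13.9% of all tested genes that were higher (24.2% in either direction). The median log2 fold change of the list was 0.75, beside 0.03 over all genes. *Zbp1* (7.98), the gene of a sensor of Z-form nucleic acids, was highest, followed by the PYHIN family genes *Mnda* (6.04) and *Ifi205* (5.79). *Zbp1* was uneven in the controls, with values of 71.1, 742 and 38.0, whereas the mutant-labelled values were 34309.7, 27931 and 34764. PYHIN genes lie side by side as close copies, so the counting may have split their reads. In the list of other nucleases, 7 of 25 tested genes (28%) passed the threshold, all 7 higher and 6 of them with an adjusted p at or under 0.05, against 24.2% of all tested genes (13.9% higher), with a median of 0.38. *Isg20* (5.64), the gene of an exonuclease of RNA, rose most, and *Pnpt1* (2.47) encodes an RNA exonuclease of mitochondria. *Dnase1l3* (3.03), a secreted DNase gene, had values of 0, 8.5 and 21.5 in control-labelled and 108, 23.2 and 43.5 in mutant-labelled libraries, and its limma adjusted p was 0.0737. It lost its call in 6 of 18 other fits, and without mutant replicate 3 the count of the list was 5. A pair of nuclease genes closer to the members in function did not pass the threshold, *Rnaseh1* (0.45), which also cuts RNA in hybrids with DNA, and *Dnase2a* (-0.50), the DNase of lysosomes, in a row with *Gm38426*.

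Of 25 genes of AGS and other interferonopathies outside the 7 members, 10 (40.0%) passed the threshold, all 10 higher, against 24.2% of all tested genes (13.9% higher), with a median log2 fold change of 0.67. *Usp18*, *Dnase2a*, *Skiv2l*, *Rnaset2a* and *Rnaset2b* are counted in this list and in a list above. *Isg15* (6.39), *Usp18* (6.18) and *Ifih1* (5.69) had the largest values. The AGS genes thus spanned a wide range, from 5.69 for *Ifih1* and 2.72 for *Adar* to -1.40 for *Rnaseh2c*. Between them lay the row of *Trex1* and *Atrip* (2.17) and *Samhd1* (1.60). Many genes of this list are themselves induced by IFN. The authors took a signature of 6 IFN-stimulated genes (ISGs) from earlier work on *Adar1* deletion in other tissues, and also measured it in these mutants by RT-qPCR. It was higher in 6 of 6 genes with a median of 7.09, and is not used here as evidence on the members.

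**Figure D4:**
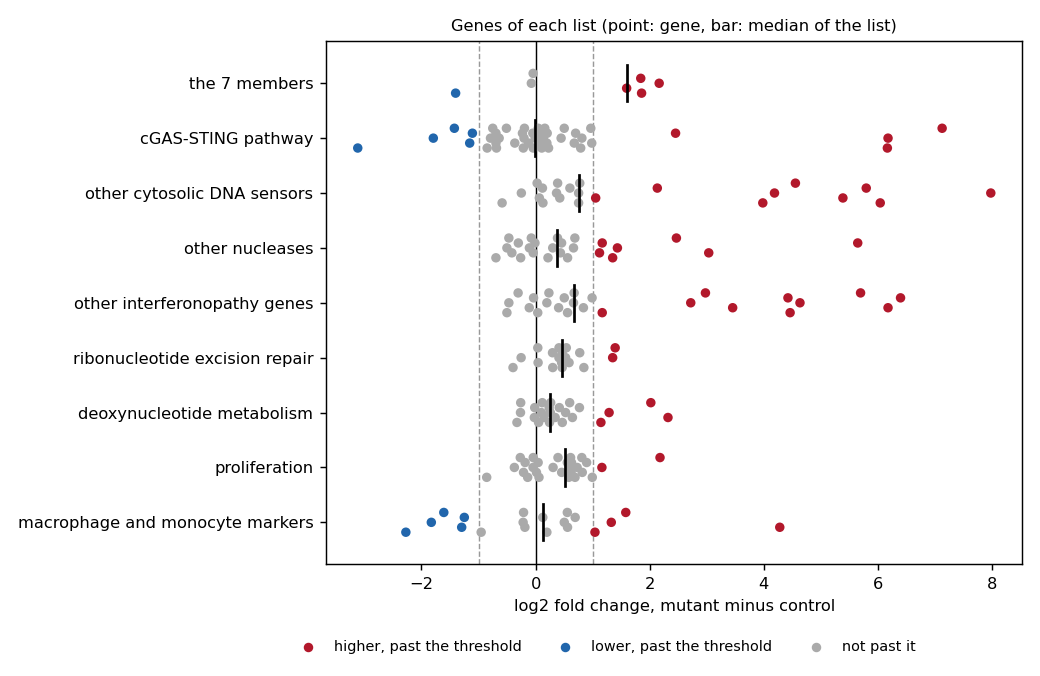
Log2 fold change (x axis, mutant minus control) of every tested gene of each list, with the median of the list as a bar and dashed lines at a change of 2-fold. Red and blue points passed the threshold, higher or lower. The members hold 4 red points and 1 blue point, and the 22 other DNA sensors hold 9 red points and no blue one.

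RNase H2 acts with the replication and repair enzymes of ribonucleotide excision, and of the 18 genes of this list 2 (11.1%) passed the threshold, both higher, where 13.9% of all tested genes were higher. The median log2 fold change of the list was 0.46. *Exo1*, *Fen1* and *Rnaseh1* also stand in the list of nucleases. The 2 that passed were *Pold4* (1.39, in a row with *Clcf1*, *Clcf1-pold4* and *Gm45928*) and the exonuclease gene *Exo1* (1.35). The row does not tell reads of *Pold4* from those of *Clcf1*. *Pcna* (0.46), the gene of the replication clamp, and *Fen1* (0.30), the gene of the flap nuclease, did not pass it. Of 28 proliferation genes, 2 (7.14%) rose and none fell (median 0.51), beside 13.9% of all tested genes higher and 10.4% lower. Of 24 genes of deoxynucleotide metabolism, which include enzymes of synthesis and of breakdown, 4 (16.7%) passed, all 4 higher, again where 13.9% of all tested genes were higher, with a median of 0.26. They were *Pnp* (2.32), a purine phosphorylase gene, and *Nt5c3* (2.02), a nucleotidase gene, both of breakdown, and the folate enzyme genes *Shmt2* (1.29) and *Shmt1* (1.14). The ribonucleotide reductase genes *Rrm2* (0.24) and *Rrm2b* (-0.27) did not pass the threshold.

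cGAS, STING and SAMHD1 are abundant in macrophages, so markers of blood-derived cells are given beside them. Among all tested genes, 13.9% rose and 10.4% fell past the threshold, and the marker counts are read beside these shares. Of 19 macrophage and monocyte markers, 4 rose (*Ly6c2*, *Fcgr1*, *Ptprc* and *Aif1*) and 5 fell (*Csf1r*, *Lyz2*, *Cd14*, *Cx3cr1* and *Mrc1*). Their summed level ranged from 25300 to 31834 in control-labelled and from 25787 to 30046 in mutant-labelled libraries, so that the ranges overlapped, and none of the 19 was at 0 in a group. Of 12 tested markers of T, B and natural killer cells, 6 rose, and the summed level was 224 to 360 in control-labelled and 507 to 676 in mutant-labelled libraries. *Ncr1*, *Eomes* and *Cd8a* were at 0 in all 3 control-labelled libraries and *Nkg7* had a mean of 2.32 there, so these 4 passed the filter on low values only through the mutant-labelled group, and the count of 6 is no support for a difference. Among 7 neutrophil and mast cell markers 1 rose and 1 fell, and none of 9 endothelial markers passed the threshold. Of 10 fibroblast and perineurial markers 4 fell, and of 7 erythroid markers 6 fell. The part of each cell type in the values of the members was not tested.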

How the data were processed

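RNA-seq was analysed from sciatic nerves of 3 control and 3 mutant mice. The authors mapped reads of oriented poly-A cDNA to mm10 with STAR 2.4.0 and counted those on the constitutively spliced regions of each FAST DB gene. The deposited signal per gene is the read count divided by a DESeq2 size factor. Dividing a library by its smallest value above 0 gave whole reads for 100% of values (tolerance 0.01). The table also lists genes with 0 reads.

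log2(value + 1) was fitted with limma 3.58.1 (lmFit, eBayes with trend, R 4.3.3) for the 25802 genes with a mean of at least 10 in at least 1 genotype. The test and its threshold (p at or under 0.05, at least 2-fold) took the study's limits. edgeR 4.0.16 and DESeq2 1.42.0 on the recovered reads, other pseudocounts, filters and scalings, a replicate block and the removal of each library were alternatives. The limma, edgeR and DESeq2 steps were tested on simulated counts. Subunit ratios had exact permutation tests.

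Named genes were the 7 members, in each list of related genes past the threshold the 3 that rose most and the 2 that fell most, 16 pathway genes whatever their values, and the 2 nearest profiles of each member. *Trim56*, *Rnf5*, *Lrrc8b* and *Shmt1*, the markers that changed, and genes named for a call that a setting changed or for standing in a pair of lists were named after their values were seen. Members and lists were chosen with earlier results of these data known. Promoter sequences came from RefSeq and exon numbers from GENCODE, both on GRCm38. Protein sequences were not used here. Counting errors apart, 3 animals for each genotype limit the precision, and without molecular identifiers, reads copied by PCR cannot be counted as separate molecules.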

Additional observations from a re-analysis of the deposited data

How the results depend on the processing

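The 7 log2 fold changes, the count of members past the threshold and the counts of the 6 lists were recomputed in 12 fits with another setting and in 6 fits that each lacked 1 library. Of the members, 5 passed the threshold in every one of these fits, and each count of genes of a list past the threshold, both directions together, stayed within 1.5 times its reported value. By direction, the cGAS-STING pathway list went from 4 higher and 5 lower to 6 higher and 3 lower at the same total. The log2 fold change ranged over all fits from 1.53 to 2.07 for *Mb21d1* (lowest without control replicate 3), 1.73 to 2.01 for *Tmem173*, 2.05 to 2.33 for *Trex1*, 1.48 to 1.76 for *Samhd1* and -1.52 to -1.24 for *Rnaseh2c*. It took both signs for *Rnaseh2a* (-0.27 to 0.09) and *Rnaseh2b* (-0.16 to 0.12), which passed in none. Rescaling to the same total moved the median log2 fold change of all genes from 0.03 to 0.20 and the share of calls that were higher from 57.3 to 66.4%, and the same 75th percentile moved them to -0.09 and 50.3%. With a block for the replicate number, 6149 genes and 5 members passed the threshold. Deviations of libraries with the same number had correlations of -0.06, -0.06 and 0.01. They gave no sign that the numbers pair the animals, which 3 libraries for each genotype cannot exclude. The block changed no call of a member. *Dnase1l3* lost its call in 6 of the 18 fits, among them those without control replicate 1, mutant replicate 1 or mutant replicate 3, with values from 1.72 to 4.18. *Dhx36* lost it at the same 75th percentile and without control replicate 2 or mutant replicate 1, and *Xrn1* without mutant replicate 3. In turn, *Aim2*, *Ikbke*, *Lsm11*, *Nlrc3*, *Pola1* and *Pold3* passed the threshold in 1 to 4 of the 18 fits and not in the reported one. The differences of the subunit ratios over *Rnaseh2c* lay between 1.23 and 1.48 with other pseudocounts or a library left out. The cause of these shifts was not tested. *Mb21d1* rested on the fewest reads, 53 to 130 in the controls.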
